A study of Mus musculus with 6 samples.

Results

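Globin and heme synthesis genes were followed in RNA-seq of bulk kidney tissue of mice with the genotype WT (wild type), labelled 2M (2 libraries) and 24M (4 libraries) in a study of natural aging. The 9 genes were listed by symbol and comprise the alpha globins Hba-a1 and Hba-a2, the beta globins Hbb-bs and Hbb-bt, and the enzymes Alas1, Alas2, Alad, Urod and Fech. All 9 are among the 13726 genes listed in the deposited tables, and all 9 entered the test. The libraries 2M_1, 2M_2, 24M_1 and 24M_2 stand in 1 table, where changes with age were tested, while 24M_3 and 24M_4 stand in a table that was made separately and are set beside them as values. They enter a fit only in 1 alternative, which has a term for the table. The sources used here do not give strain, sex, dissection or any flushing of blood. The labels do not say whether each library is its own animal, and the p-values therefore cover only the spread of these samples, which may be technical.

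Heme is built from glycine and succinyl-CoA by a chain of enzymes that begins and ends in the mitochondrion. The first step, made by an ALA synthase, sets the rate: ALAS1 serves every tissue and supplies cytochromes and other heme enzymes, while ALAS2 is the form of developing red cells, where most heme goes into hemoglobin. The proximal tubule holds abundant mitochondria, catalase and cytochrome P450 and makes its own heme. Red cells in the vessels of a kidney carry globin transcripts only while they are young reticulocytes, and kidney cells of some kinds have also been described to express globins, so a globin transcript in whole kidney can come from either source. In bulk RNA, fewer cells of a kind and less RNA per cell cannot be told apart.

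The genes lie apart in the genome (GENCODE vM21, GRCm38, the assembly of mm10), and all are protein coding. Hba-a1 (chr11:32283511-32284465) and Hba-a2 (chr11:32296489-32297298) neighbour each other on the plus strand, and Hbb-bs (chr7:103826534-103828096) and Hbb-bt (chr7:103812524-103813996) on the minus strand. Alas2 lies on the plus strand of the X chromosome (chrX:150547375-150570638) and Alas1 on the minus strand of chromosome 9 (chr9:106233455-106248654). Alad (chr4:62509169-62519918), Urod (chr4:116989965-116994413) and Fech (chr18:64452914-64490251) are on the minus strand.

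The members of each globin pair are near-identical in sequence, which limits how far their values can be separated. The longest open reading frames of Hba-a1 and Hba-a2 are 429 bases long and differ at 1 base. Those of Hbb-bs and Hbb-bt are 444 bases long and also differ at 1 base. How reads that match both copies were assigned is not given in the sources used here, so single globin values are uncertain and the sum of each pair is given as well.

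The 250 bases before the RefSeq start (GRCm38.p6) are shown for the globins and both ALA synthases, because these are the genes whose levels moved most between libraries. GENCODE places the start of each of these genes inside or upstream of its window. Capitals mark the motifs searched on both strands, which were AGATAA (the core bound by GATA factors), CCACACCC (a KLF1 site of the adult beta globin gene), TGAGTCA (the core bound by NF-E2), TATAAA (the TATA box), CCAAT (bound by NF-Y) and CGCATGCG (the centre of the nuclear respiratory factor 1 motif, its own reverse complement). The window of Hba-a2 (chr11:32296242-32296491) shares an unbroken run of 247 bases with that of Hba-a1 and is not repeated. RefSeq gives a pair of starts for Alas1, and the downstream window is shown.
Hba-a1, chr11:32283422-32283671, plus strand: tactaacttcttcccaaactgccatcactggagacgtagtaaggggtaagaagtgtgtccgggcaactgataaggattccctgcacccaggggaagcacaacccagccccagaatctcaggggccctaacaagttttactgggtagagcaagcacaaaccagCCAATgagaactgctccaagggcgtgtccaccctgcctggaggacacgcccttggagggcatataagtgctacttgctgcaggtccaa
Hbb-bs, chr7:103827929-103828178, minus strand: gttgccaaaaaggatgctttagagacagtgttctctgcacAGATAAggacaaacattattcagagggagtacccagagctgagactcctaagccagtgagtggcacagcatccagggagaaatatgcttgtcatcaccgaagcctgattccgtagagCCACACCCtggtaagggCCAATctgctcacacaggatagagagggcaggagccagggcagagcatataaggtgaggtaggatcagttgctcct
Hbb-bt, chr7:103813924-103814173, minus strand: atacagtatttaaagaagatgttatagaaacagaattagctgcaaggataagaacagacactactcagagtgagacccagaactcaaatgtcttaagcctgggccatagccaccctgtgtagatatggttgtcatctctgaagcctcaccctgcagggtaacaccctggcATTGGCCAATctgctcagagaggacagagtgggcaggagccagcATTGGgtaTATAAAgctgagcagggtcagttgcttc
Alas2, chrX:150547167-150547416, plus strand: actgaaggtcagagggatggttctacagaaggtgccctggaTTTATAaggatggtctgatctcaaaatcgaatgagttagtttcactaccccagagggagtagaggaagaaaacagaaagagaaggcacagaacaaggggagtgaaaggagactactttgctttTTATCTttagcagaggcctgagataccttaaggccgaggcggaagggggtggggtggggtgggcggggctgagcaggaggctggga
Alas1, chr9:106247731-106247980, minus strand: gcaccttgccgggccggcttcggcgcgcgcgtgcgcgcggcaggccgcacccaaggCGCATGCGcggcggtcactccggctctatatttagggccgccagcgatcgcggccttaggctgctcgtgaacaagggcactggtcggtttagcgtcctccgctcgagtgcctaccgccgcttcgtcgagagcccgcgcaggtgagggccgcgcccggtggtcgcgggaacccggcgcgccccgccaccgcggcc
The longest run shared by the windows of Hbb-bs and Hbb-bt is 14 bases, so the beta globin promoters differ far more than their coding sequences. Hbb-bs holds AGATAA at bases 210 to 205 before the start, CCACACCC at 93 to 86 and CCAAT at 76 to 72. Hbb-bt holds CCAAT on both strands and TATAAA at 28 to 23, and Hba-a1 holds CCAAT at 88 to 84. Alas2 holds AGATAA on the reverse strand at 86 to 81 and TATAAA on the reverse strand at 209 to 204, and Alas1 holds CGCATGCG at 194 to 187. Of 32851 RefSeq promoter windows of this length, 9.99% hold AGATAA, 3.20% CCACACCC, 12.4% TATAAA, 33.8% CCAAT and 1.55% CGCATGCG. No window shown holds TGAGTCA, which is in 4.46% of all windows. In these windows no motif overlaps another. A match is a run of letters, not a shown binding site. Only these exact spellings were searched, so near variants are unmarked, such as TGATAA in Hba-a1 and TATAAG in Hba-a1 and Hbb-bs.

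The values are FPKM, reads per length of gene and per depth of library, and the reads behind each value are not given, so the depth is unknown. The sums of all FPKM lay between 286198 and 295286 in the tested table and were 302628 and 335723 for 24M_3 and 24M_4. Of 11437 genes tested by limma on log2(FPKM + 1), 87 (0.761%) were higher and 93 (0.813%) lower in 24M at an adjusted p below 0.05. Of the 9 genes, 1 was higher (Alas1) and 1 lower (Hbb-bt). The median log2 change of all genes tested was -0.02. The labels give the tissue as kidney, and all 20 proximal tubule markers were listed, with summed levels of 14871 and 15210 FPKM (2M), 15233 and 15878 (24M_1, 24M_2), and 12745 and 25011 (24M_3, 24M_4). Most of that sum in each 2M library came from Kap, an androgen-regulated tubule gene, which had 6274 FPKM in 24M_3 and 17106 in 24M_4.

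The globin transcripts of 24M_1 and 24M_2 stood far from the 2M level, with 2M means 4.52 to 5.70 times those of 24M, and 1 of the 4, Hbb-bt, passed the test. Hba-a1 encodes an alpha chain of adult hemoglobin and had 53.6 and 44.7 FPKM (2M), 6.54 and 15.2 (24M_1, 24M_2), and 51.4 and 45.2 (24M_3, 24M_4). Both libraries of 24M in the tested table lay below both of 2M, while 24M_3 and 24M_4 lay between the 2M libraries. Mean levels were 49.1 ± 6.31 (2M) and 10.9 ± 6.11 FPKM (24M_1 and 24M_2; SD, n = 2 each), and the log2 change of -2.18 ± 0.43 (SE; 95% interval -3.41 to -0.94) did not pass (limma adjusted p = 0.152).

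Hba-a2, the second alpha gene, had 44.5 and 34.4 FPKM (2M), 5.44 and 10.3 (24M_1, 24M_2), and 41.9 and 39.1 (24M_3, 24M_4). It kept the order of libraries seen for Hba-a1, and its log2 change of -2.23 ± 0.33 did not pass either (limma adjusted p = 0.0947). Summed, the alpha globins had 98.05 and 79.1 FPKM (2M), 12.0 and 25.5 (24M_1, 24M_2), and 93.3 and 84.2 (24M_3, 24M_4). The summed change was -2.26 ± 0.40 (SE; limma adjusted p = 0.133).

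Hbb-bs encodes the beta chain with the higher level of the pair and had 67.5 and 52.4 FPKM (2M), 7.97 and 17.0 (24M_1, 24M_2), and 85.0 and 67.9 (24M_3, 24M_4). In the separate table it lay above both 2M libraries, the reverse of its place in 24M_1 and 24M_2. Its log2 change in the tested table was -2.25 ± 0.40 (SE; 95% interval -3.41 to -1.09; limma adjusted p = 0.131). Hbb-bt, its minor partner, had 28.4 and 22.6 FPKM (2M), 3.30 and 5.65 (24M_1, 24M_2), and 20.8 and 15.3 (24M_3, 24M_4). All 4 libraries of 24M lay below both of 2M, though 24M_3 came close to 2M_2. Hbb-bt fell from 25.5 ± 4.11 to 4.47 ± 1.66 FPKM, by 2.30 ± 0.25 (SE) on the log2 scale, with a limma adjusted p of 0.0449. The call ended at a pseudocount of 0.1 (adjusted p = 0.0581), without 2M_1 (0.230), without 2M_2 (0.181) and in a fit of all 6 libraries with a term for the table (0.0707), and the summed beta globins did not pass (log2 change -2.33 ± 0.38, adjusted p = 0.117).

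A log2 change of -2 or below, 4-fold on this scale, was found for 16 of the 11437 genes tested (0.140%), and the 4 globins are among them. Libraries of 1 age differed among themselves. Hba-a1 was 2.32-fold higher in 24M_2 than in 24M_1, Hbb-bs 2.13-fold and Hbb-bt 1.71-fold, while 2M_1 exceeded 2M_2 by 1.2-fold to 1.29-fold across the 4 genes. Without 24M_2, where the age change comes from 24M_1 alone, all 4 globins passed (limma adjusted p from 0.0174 to 0.0272), and without 24M_1 Hba-a1 and Hbb-bt did (0.0402 and 0.0407). Without 2M_1 or without 2M_2 none did.

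**Figure D1:**
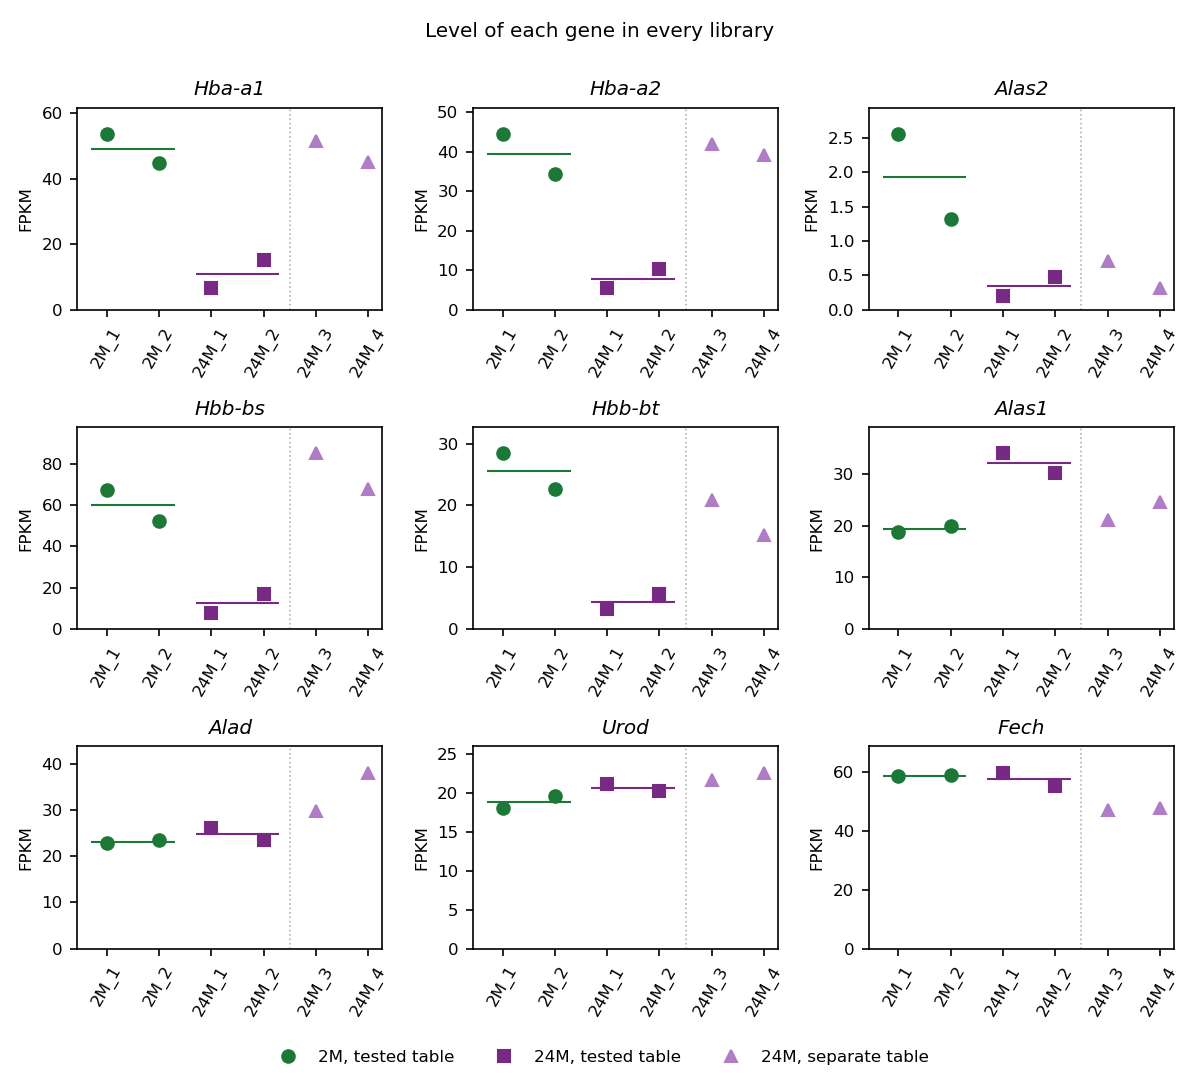
FPKM of each of the 9 genes (vertical axis, from 0) in the 6 libraries (horizontal axis); points are libraries, horizontal lines the mean of 2 libraries, and the dotted line parts the separate table. The globins of 24M_1 and 24M_2 sit far below the other 4 libraries, Alas2 is low in all 4 libraries of 24M, and Alas1 is highest in 24M_1 and 24M_2.

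The chains kept their proportions in the tested table. The ratio of summed beta to summed alpha globin was 0.978 and 0.949 (2M), 0.942 and 0.887 (24M_1, 24M_2), and 1.13 and 0.988 (24M_3, 24M_4). Hba-a2 made up 45.3% and 43.5% of the alpha sum in 2M, 45.4% and 40.5% (24M_1, 24M_2), and 44.9% and 46.4% (24M_3, 24M_4). These shares stayed close together while Hba-a1 itself ranged over 8.20-fold across the 6 libraries. How reads that match both copies were assigned is not given, so no conclusion is drawn from the evenness of the shares. The share of Hbb-bt in the beta sum was less even, at 29.6% and 30.1% (2M), 29.3% and 25.0% (24M_1, 24M_2), and 19.7% and 18.4% (24M_3, 24M_4). The separate table therefore has less Hbb-bt beside Hbb-bs than any library of the tested table. Here the animal, the table and the assignment of shared reads cannot be told apart.

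Alas2, the erythroid ALA synthase, was close to the lower limit of the table and had 2.56 and 1.32 FPKM (2M), 0.199 and 0.481 (24M_1, 24M_2), and 0.708 and 0.319 (24M_3, 24M_4). All 4 libraries of 24M lay below both of 2M, and the 2M libraries themselves differed 1.94-fold. Alas2 entered the test only through its 2M libraries, since the filter asked for 1 FPKM in 2 libraries, so a difference was built into its passing. The log2 change was -1.11 ± 0.24 (SE), which understates the change of so low a gene, and did not pass (limma adjusted p = 0.117). At a pseudocount of 0.1 the change was -2.22 (adjusted p = 0.110).

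Globins and Alas2 went together in the tested table and apart in the separate one. The summed globins were 75.9 and 117 times the Alas2 level in 2M_1 and 2M_2, and 117 and 100.01 times in 24M_1 and 24M_2. In 24M_3 and 24M_4 the ratio was 281 and 526. The summed globins of those libraries stood near the 2M level while their Alas2 stood near that of 24M_1 and 24M_2. These ratios are of FPKM within a library, so the total of the library cancels, but an Alas2 value under 1 FPKM is a low level in itself. The difference between tables was not tested.

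**Figure D2:**
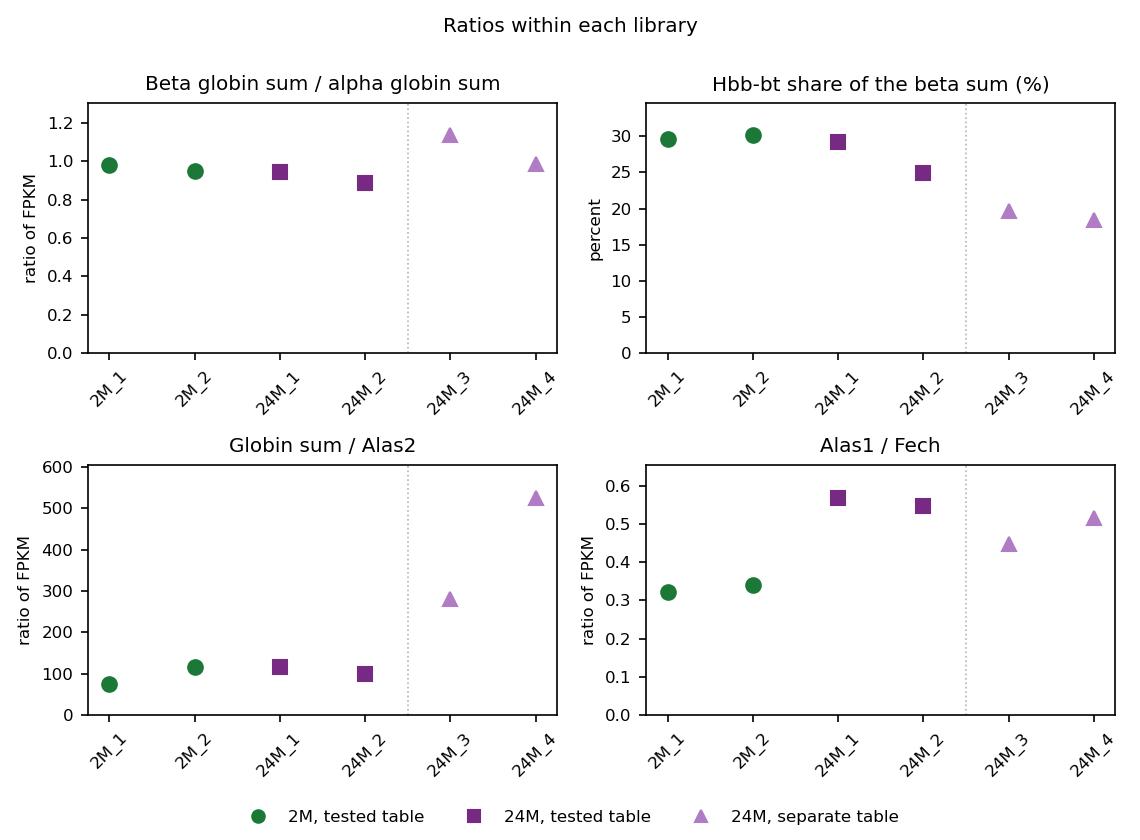
Ratios of FPKM, or percent, within each library (vertical axes, from 0) for the 6 libraries (horizontal axes); each point is 1 library. Beta over alpha globin lies between 0.887 and 1.13, the globin sum over Alas2 is 281 and 526 (24M_3, 24M_4) against 75.9 to 117 elsewhere, and Alas1 over Fech is lowest in the 2M libraries.

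Alas1, the housekeeping ALA synthase that sets the rate of heme synthesis outside red cells, was higher in 24M. It had 18.8 and 20.0 FPKM (2M), 34.0 and 30.2 (24M_1, 24M_2), and 21.0 and 24.6 (24M_3, 24M_4). All 4 libraries of 24M lay above both of 2M, but 24M_3 by little. Alas1 rose from 19.4 ± 0.848 to 32.1 ± 2.69 FPKM (SD, n = 2 each), 1.65-fold, a log2 change of 0.69 ± 0.09 (SE; 95% interval 0.48 to 0.91; limma adjusted p = 0.0319). The call ended when any 1 of the 4 libraries was left out (adjusted p = 0.0554 to 0.232), without trend and robust variance (0.0640) and with all 6 libraries and a table term (0.173), while the change stayed between 0.61 and 0.78.

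The later enzymes of the chain did not pass. Alad, which joins ALA molecules into porphobilinogen, had 22.9 and 23.5 FPKM (2M), 26.1 and 23.5 (24M_1, 24M_2), and 29.7 and 38.1 (24M_3, 24M_4). Its log2 change was 0.09 ± 0.08 (SE; 95% interval -0.10 to 0.29; limma adjusted p = 0.605). The library 24M_4 stood highest, in the separate table, and the 2M libraries and 24M_2 were nearly level.

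Urod, the decarboxylase that turns uroporphyrinogen into coproporphyrinogen, was the steadiest member over the 6 libraries, at 18.01 to 22.6 FPKM. Its values were 18.01 and 19.6 (2M), 21.1 and 20.2 (24M_1, 24M_2), and 21.6 and 22.6 (24M_3, 24M_4). The log2 change was 0.13 ± 0.08 (SE; 95% interval -0.07 to 0.33; limma adjusted p = 0.467). Fech, ferrochelatase, which puts iron into the ring in the mitochondrion, was the most abundant of the 5 enzymes in every library. It had 58.6 and 58.9 FPKM (2M), 59.7 and 55.2 (24M_1, 24M_2), and 47.1 and 47.7 (24M_3, 24M_4). The ages overlapped in the tested table, and the log2 change of -0.03 ± 0.07 had an interval of -0.20 to 0.13 at 95% (limma adjusted p = 0.852). In the tested table the 95% interval of Fech reached at most 0.20 in either direction, and those of Alad and Urod 0.29 and 0.33 upward. Each is smaller than the lower end of the interval of Alas1, but these intervals rest on 2 libraries per age. The order was not kept in 24M_3 and 24M_4. Their mean for Alad was 33.9 FPKM against 23.2 in 2M, and for Alas1 22.8 against 19.4. These differences between tables were not tested.

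**Figure D3:**
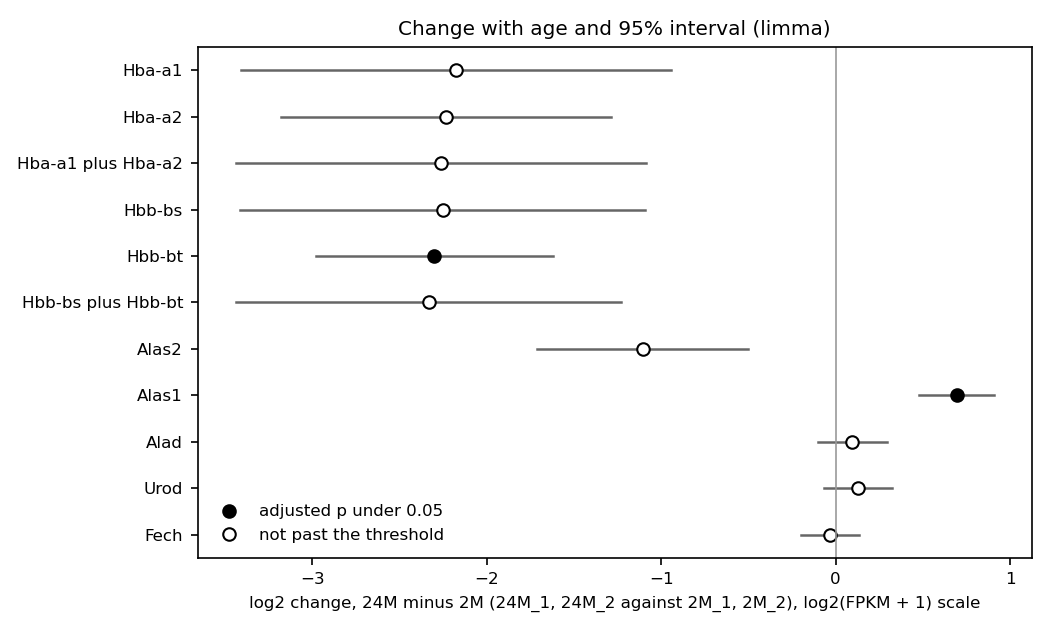
Log2 change from 2M to 24M (horizontal axis, log2(FPKM + 1) scale) of the 9 genes and of both paralog sums, from 2 libraries per age; points are limma estimates, bars 95% intervals, filled points passed at an adjusted p below 0.05. The globins and their sums lie between -2.18 and -2.33 with wide intervals, Alas1 is at 0.69, and Alad, Urod and Fech lie at 0.13 or less with intervals that include 0.

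The globins with Alas2 and the other enzymes lay far apart in 24M_1 and 24M_2 and closer in the other 4 libraries. The mean log2(FPKM + 1) of the 4 globins and Alas2 was 4.82 and 4.43 (2M), 2.23 and 2.997 (24M_1, 24M_2), and 4.56 and 4.28 (24M_3, 24M_4). The same mean over Alas1, Alad, Urod and Fech was 4.76 and 4.82 (2M), 5.07 and 4.95 (24M_1, 24M_2), and 4.87 and 5.03 (24M_3, 24M_4). The first set spans a range of levels that the second does not. The lowest library of the first, 24M_1, is the highest of the second, but only at 5.07 against 5.03 in 24M_4. Within the second set Alas1 and Fech were highest in 24M_1, and Alad and Urod in 24M_4. Alas1 stood at 0.321 and 0.340 times the level of Fech in 2M, and at 0.569 and 0.546 times in 24M_1 and 24M_2. In 24M_3 and 24M_4 it stood at 0.447 and 0.515 times, so the ratio was higher in each library of 24M. Fech itself was lower in 24M_3 and 24M_4, at 47.1 and 47.7 FPKM against 58.6 and 58.9 in 2M, which raises their ratios. These ratios were not tested. An exact two-sided permutation test of 2 libraries against 2 cannot go below p = 0.33.

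By position alone, 5 of the 9 genes (the globins and Alas2) lay below both 2M libraries in 24M_1 and 24M_2, as did 29.6% of all genes tested. Another 3 (Alas1, Alad and Urod) lay above both, as did 20.8% of all genes. Over all 4 libraries of 24M, 2 of the 9 (Hbb-bt and Alas2) lay below and 3 above, against 16.7% and 9.88% of 11418 genes in both tables.

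Further enzymes of heme synthesis did not pass. None of Uros, Cpox and Ppox passed by limma, and none had an unadjusted p below 0.05, where all genes tested gave 16.9% (6.96% higher and 9.94% lower). Cpox, the coproporphyrinogen oxidase of the mitochondrial intermembrane space, was the most abundant of them at 46.7 and 44.1 FPKM (2M), 47.0 and 51.4 (24M_1, 24M_2), and 35.7 and 48.9 (24M_3, 24M_4). Ppox, the next enzyme, had 4.38 and 4.64 FPKM (2M), 4.55 and 2.35 (24M_1, 24M_2), and 8.05 and 7.07 (24M_3, 24M_4).

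Transport, breakdown and regulation of heme showed no call. None of 14 tested genes of heme and porphyrin transport and ALAS handling passed by limma, 1 had an unadjusted p below 0.05, and the median log2 change was -0.01. That gene was Slc25a38, the mitochondrial carrier that brings in glycine for ALA synthesis, at 7.06 and 7.11 FPKM (2M) and 9.02 and 10.6 (24M_1, 24M_2) (log2 change 0.42 ± 0.10, limma adjusted p = 0.139). Flvcr1, a heme exporter, had 1.57 and 1.65 FPKM (2M) and 7.28 and 2.75 (24M_1, 24M_2), so the 24M libraries differed more from each other than 24M_2 did from 2M. Clpx, a mitochondrial unfoldase that acts on ALA synthases, had 82.1 and 72.0 FPKM (2M) and 65.6 and 68.2 (24M_1, 24M_2) (limma adjusted p = 0.305).

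Among genes of heme breakdown and plasma heme uptake, none of 8 passed by limma and 1 had an unadjusted p below 0.05. All 8 changes were above 0 with a median of 0.09, where the median of all genes tested was -0.02. The lowest p belonged to Hmox1, the inducible heme oxygenase, which had 11.9 and 12.9 FPKM (2M), 18.5 and 16.6 (24M_1, 24M_2), and 30.5 and 26.8 (24M_3, 24M_4). All 4 libraries of 24M lay above both of 2M (log2 change 0.47 ± 0.09, limma adjusted p = 0.0812). Its constitutive relative Hmox2 had 42.2 and 38.3 FPKM (2M) and 43.4 and 40.1 (24M_1, 24M_2). Of 8 tested regulators of Alas1 and heme sensors none passed and 1, Bach1, had an unadjusted p below 0.05. Bach1, a heme-binding repressor of Hmox1, had 6.66 and 6.13 FPKM (2M) and 7.83 and 7.92 (24M_1, 24M_2) (limma adjusted p = 0.230). Nr1d1, a heme-binding clock repressor, had 5.67 and 9.55 FPKM (2M), 10.3 and 13.9 (24M_1, 24M_2), and 28.8 and 14.9 (24M_3, 24M_4) (limma adjusted p = 0.360). Ppargc1a, a coactivator of Alas1, had 23.5 and 21.8 FPKM (2M) and 20.1 and 21.2 (24M_1, 24M_2).

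A further list, mainly of cytochrome P450 and heme protein genes but not limited to them or to the tubule, had 18 tested genes. Of these, 1 was lower and none higher, and the median of their log2 changes was 0.03. Cyp2d26, a cytochrome P450 of the Cyp2d family, fell from 43.7 ± 4.17 to 20.9 ± 1.43 FPKM, by 1.03 ± 0.09 (SE) on the log2 scale (limma adjusted p = 0.0154), and had 59.3 FPKM in 24M_3 and 27.9 in 24M_4. The most abundant of the list did not pass. Cyp2j5 had 878 and 907 FPKM (2M) and 850 and 831 (24M_1, 24M_2), and Cyp4b1 had 760 and 870 against 763 and 891. Catalase (Cat), the peroxisomal heme enzyme, had 449 and 480 FPKM (2M) and 475 and 469.5 (24M_1, 24M_2). Cygb, the cytoglobin of interstitial cells, a globin that carries no blood oxygen, had 5.49 and 3.78 FPKM (2M) and 8.87 and 9.29 (24M_1, 24M_2) (log2 change 0.86 ± 0.16, limma adjusted p = 0.0759), the opposite direction to the blood globins. Of the proximal tubule markers 1 of 20 was higher, the organic anion transporter Slc22a8 (limma adjusted p = 0.0475), and none was lower, and their median log2 change was 0.05. Their part in the change of Alas1 was not tested.

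**Figure D4:**
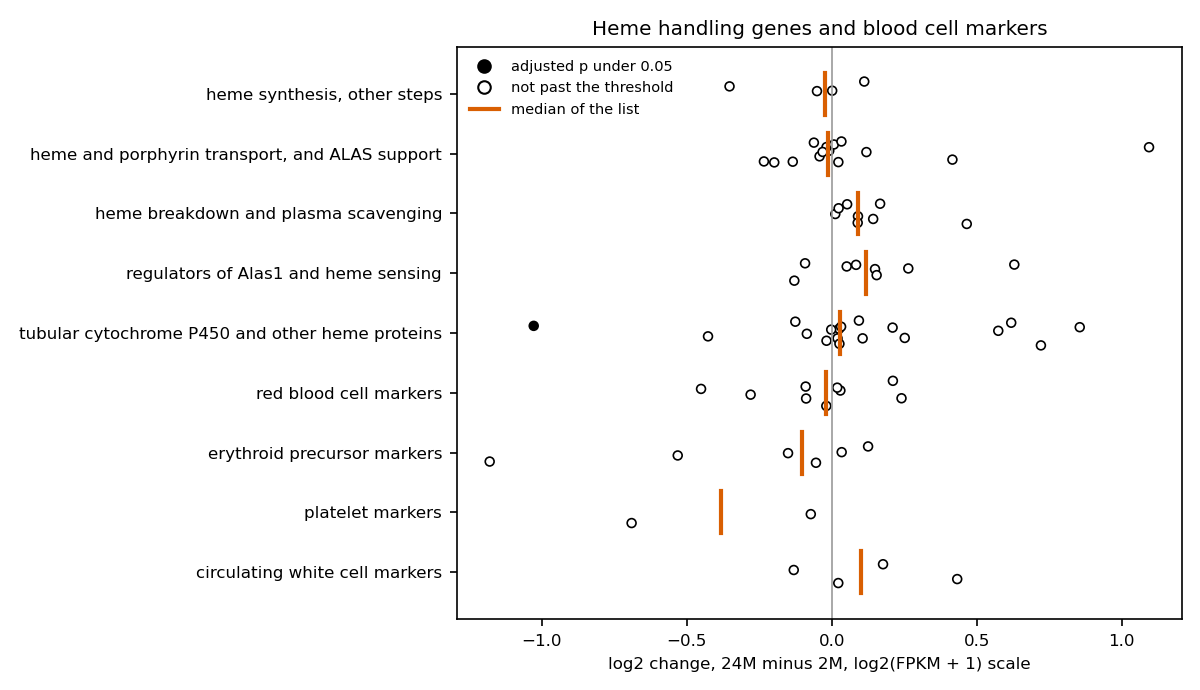
Log2 change from 2M to 24M (horizontal axis, log2(FPKM + 1) scale) of each tested gene in 9 lists (rows); open points did not pass, filled points passed at an adjusted p below 0.05, and orange bars are list medians. The single filled point is Cyp2d26 at -1.03; Epor at -1.18 and Flvcr1 at 1.09 lie farthest from 0 among the open points.

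Other transcripts of blood were scarce in these libraries. Of 24 red cell markers other than the 9 genes, 12 were listed in neither table, among them Ahsp (the alpha globin chaperone), Epb42 and Ank1 of the red cell skeleton, and Rhag. Of the 9 tested, none passed by limma, 1 had an unadjusted p below 0.05 and the median log2 change was -0.02. That gene was Ube2l6, a ubiquitin-like conjugating enzyme also induced by interferon, with 5.05 and 4.85 FPKM (2M), 3.22 and 3.49 (24M_1, 24M_2), and 8.85 and 2.30 (24M_3, 24M_4). Its log2 change of -0.45 ± 0.10 had the sign of the globin changes and did not pass (limma adjusted p = 0.103). The summed level of the 12 listed markers was 90.4 and 90.3 FPKM (2M), 83.9 and 86.7 (24M_1, 24M_2), and 105 and 96.7 (24M_3, 24M_4). The most abundant of them, Bnip3l (30.5 FPKM in 2M_1) and Mkrn1 (15.2), are expressed by many cells, and Slc4a1, the band 3 anion exchanger, is also made by intercalated cells of the collecting duct. Slc4a1 had 7.06 and 5.88 FPKM (2M), 5.40 and 4.87 (24M_1, 24M_2), and 6.41 and 5.42 (24M_3, 24M_4) (log2 change -0.28, limma adjusted p = 0.305).

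Of 14 erythroid precursor markers 6 were tested and none passed by limma, with 1 at an unadjusted p below 0.05 and a median log2 change of -0.10. Gata1, Nfe2, Gfi1b and the embryonic globins Hbb-bh1, Hbb-y and Hba-x were listed in neither table. The gene with the lowest p was Epor, the erythropoietin receptor, which had 2.64 and 2.51 FPKM (2M), 0.287 and 0.934 (24M_1, 24M_2), and 0.767 and 0.943 (24M_3, 24M_4) (log2 change -1.18 ± 0.21, limma adjusted p = 0.0692). Like Alas2 it lay below both 2M libraries in all 4 libraries of 24M, and like Alas2 it entered the test through its 2M libraries. Klf1, the erythroid activator of the beta globin gene, had 1.25 and 1.47 FPKM (2M) and 1.58 and 0.748 (24M_1, 24M_2).

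Platelet transcripts were few, and white cell transcripts differed most between the tables. Of 10 platelet markers 2 were listed in both tables, with sums of 3.63 and 4.08 FPKM (2M), 2.30 and 2.58 (24M_1, 24M_2), and 4.94 and 2.42 (24M_3, 24M_4). Both were tested and neither passed by limma, both changes were below 0 with a median of -0.38, and 1, Pf4, had an unadjusted p below 0.05. In 24M_1 and 24M_2 the platelet sum lay below both 2M libraries, as did the globins and 29.6% of all genes tested. Of the 2 genes in the sum, Pf4 held that position and Itga2b did not. Pf4, platelet factor 4, which tissue macrophages also express, had 2.41 and 2.56 FPKM (2M), 1.36 and 0.977 (24M_1, 24M_2), and 4.17 and 1.03 (24M_3, 24M_4) (log2 change -0.69 ± 0.13, limma adjusted p = 0.0755). Itga2b, the platelet integrin alpha chain, had 1.23 and 1.51 FPKM (2M), 0.942 and 1.61 (24M_1, 24M_2), and 0.769 and 1.38 (24M_3, 24M_4), with overlapping ages. Of 20 white cell markers 6 were listed in both tables, and 4 were tested with none called and none at an unadjusted p below 0.05. The sum over those 6 was 7.44 and 13.3 FPKM (2M), 11.6 and 12.6 (24M_1, 24M_2), and 92.0 and 43.6 (24M_3, 24M_4). In 24M_1 and 24M_2 this sum of low values lay between the 2M libraries, which themselves differed. Of the 4 tested changes 1, that of Plac8, was below 0 as for the globins, and 3 were above 0. The libraries of the separate table, whose summed globins were near those of 2M, had higher white cell sums than any other library. The part of blood content in the globin difference was not tested.

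The genes nearest to the globins in the tested table were on none of the blood lists, but the measure depends on level. On the log2(FPKM + 1) scale a gene near 1 FPKM in 2M cannot fall as far as the globins did. Low blood markers were thus held away by their level, and no conclusion is drawn from their absence. Likeness was the root mean square difference between log2(FPKM + 1) profiles centred on their mean over 4 libraries, which share 2 ages and 1 table, and it is a description. The 6 nearest of 11428 other genes were Muc20 (0.142), Akr1b3 (0.228), Tnn (0.279), Sprr2a2 (0.343), Upk1b (0.346) and Krt23 (0.365), where the median gene was at 1.16. Alas2 was at 0.612, with 54 genes nearer, a distance that its low level enlarges on this scale. Its 2M mean was 5.69 times that of 24M_1 and 24M_2, against 4.52 to 5.70 times for the globins. Muc20, a membrane mucin, had 16.5 and 17.3 FPKM (2M), 1.67 and 3.90 (24M_1, 24M_2), and 1.83 and 0.725 (24M_3, 24M_4). Upk1b, a uroplakin of the lining of the renal pelvis, had 8.22 and 7.32 FPKM (2M), 0 and 2.61 (24M_1, 24M_2), and 0.117 and 0.0880 (24M_3, 24M_4). These 6 genes stayed low in the separate table, where the mean of the globins stood near the 2M level.

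**Figure D5:**
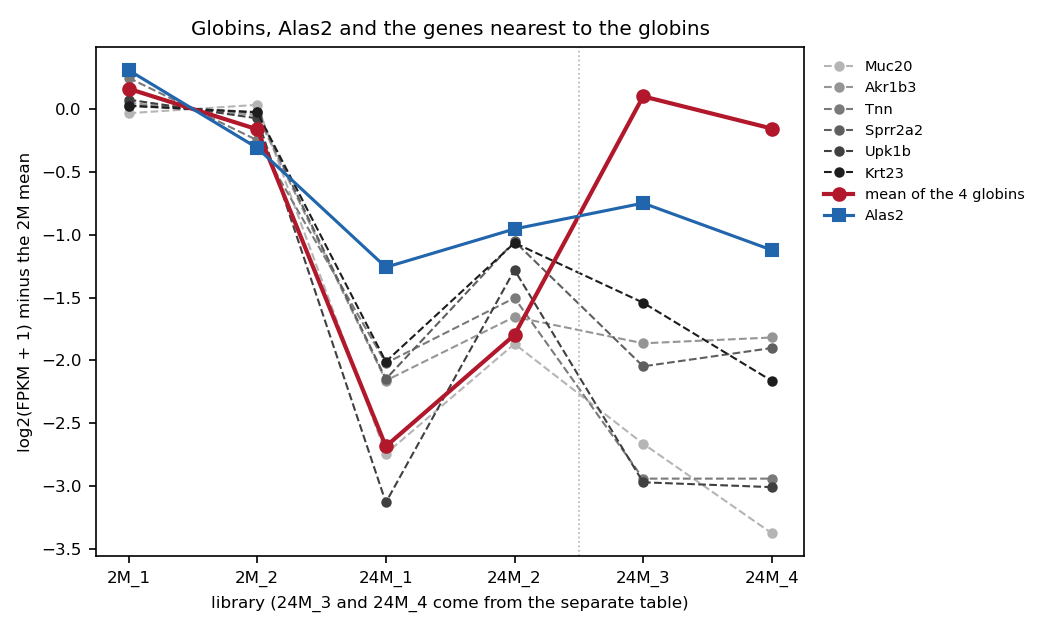
Log2(FPKM + 1) minus the 2M mean (vertical axis) in the 6 libraries (horizontal axis, the last 2 from the separate table) for the mean of the 4 globins, Alas2 and the 6 genes nearest to the globins; lines join the points of 1 gene and imply no order of replicates. The curves fall together in 24M_1 and 24M_2, and in 24M_3 and 24M_4 the globins are near 0 while Alas2 and the 6 genes stay below it.

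Markers of other kidney cells also moved in these libraries. Of 14 such markers 1 was higher by limma, Slc12a3 of the distal convoluted tubule, and 2 were lower, the fat genes Adipoq and Cfd. At an unadjusted p below 0.05 by limma, 6 were lower and 2 higher, where all genes tested gave 9.94% lower and 6.96% higher. The 6 lower include Adipoq and Cfd. The list was chosen with earlier results of these data known, so no conclusion is drawn from these counts. Of the 14 changes 11 were below 0, and the median log2 change was -0.28 against -0.02 for all genes tested. Adipoq had 2.46 and 3.43 FPKM (2M), was listed at 0 in 24M_1, 24M_2 and 24M_3, and had 0.660 in 24M_4. Cfd had 8.37 and 13.8 FPKM (2M), was listed at 0 in the same 3 libraries, and had 4.81 in 24M_4. Both entered the test only through their 2M libraries, so a difference was built into their passing.

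The vessel markers had lower means in 24M_1 and 24M_2 than in 2M, and none passed. Pecam1, an endothelial adhesion molecule, had 10.2 and 10.7 FPKM (2M), 8.18 and 8.24 (24M_1, 24M_2), and 5.95 and 5.28 (24M_3, 24M_4), with a log2 change of -0.31 ± 0.08 (limma adjusted p = 0.151). Ptprb, an endothelial phosphatase, had 9.54 and 8.56 FPKM (2M), 7.79 and 7.23 (24M_1, 24M_2), and 2.60 and 2.87 (24M_3, 24M_4), with a log2 change of -0.24 ± 0.10 (limma adjusted p = 0.293). Kdr, a VEGF receptor, had 14.8 and 12.3 FPKM (2M), 13.3 and 11.03 (24M_1, 24M_2), and 4.99 and 5.45 (24M_3, 24M_4). All 3 were lowest in the separate table, where the summed globins were near the 2M level. Slc12a1 of the thick ascending limb had 282 and 246 FPKM (2M) and 221 and 197 (24M_1, 24M_2), and Aqp2 of the collecting duct had 71.2 and 59.9 (2M) and 29.5 and 48.5 (24M_1, 24M_2). The log2 changes were -0.34 (limma adjusted p = 0.177) for Slc12a1 and -0.77 (0.300) for Aqp2. How much pelvis, fat, vessel or blood each sample held is not given, and its part in the globin difference was not tested.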

How the data were processed

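The authors deposited kidney RNA-seq values as FPKM (the headers name the libraries) in 2 tables, of 12666 and 13606 genes. The tools named per the submitters' processing notes, without role or order, are DESeq2 1.20.0, featureCounts 1.5.0-p3 and HISAT2 2.0.5, with the build mm10, and no source used here states how FPKM was made. No gene of the first table has both age means under 0.50 FPKM. No whole-read steps were found among low values: within 0.2%, 17.3% of 1042 ratios of 2M_1 to 2M_2 lay on ratios of small whole numbers at the best depth ratio and 12.9% at a typical one. Only ratios of small whole numbers were tried, so values that rest on more reads would show no steps. Depth is not given, and no counting interval was made.

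Groups and replicate numbers come from the sample titles. Symbols were matched by Ensembl ID without version. The test took genes that reached 1 FPKM in 2 or more libraries of the first table, with limma 3.58.1 in R 4.3.3 on log2(FPKM + 1), trend and robust variance, and Benjamini-Hochberg adjustment over all 11437 genes at 0.05. The test was tried on simulated data with known changes. Alternatives covered the pseudocount, filter, scaling, variance model, left-out libraries, replicate block, paralog sums and a fit of all 6 libraries with a term for the table; all other tests were made within the first table. The 9 genes, 11 lists of other genes and the tests were chosen with earlier results of these data known. Named genes are the 9 members, the called genes of each list, up to 5 further genes per list with the smallest p, and 6 genes by likeness of profile. A few further list members are given for context after their values were seen, the motif CGCATGCG was added then, and that of NF-E2 was shortened to its core. Promoter windows are from RefSeq (GRCm38.p6), and those of 8 of the 9 genes were read; no window of Fech was used here. Some members of the lists are not reported here.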

Additional observations from a re-analysis of the deposited data

How the results depend on the processing

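The 87 genes higher and 93 lower in 24M became 53 and 55 without trend and robust variance, 25 and 18 with the replicate number as a block, and 3 and 5 in the fit of all 6 libraries with a term for the table, where the spread between 24M_3 and 24M_4 enters. With 1 library left out, the genes higher ran from 0 to 37 and the genes lower from 0 to 76. Both were 0 by limma without 2M_1 and without 2M_2, and 1274 and 1533 genes then had an unadjusted p under 0.05; these fits assume that the lone library varies like the other group, and the tested genes were held fixed.

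The replicate number paired nothing that the labels state (correlation of deviations -0.059 between same-numbered libraries), and with the block no member passed (Hbb-bt adjusted p = 0.125, Alas1 0.111). With the table term none passed either (0.0707 and 0.173). The change of Fech ran from -0.088 to 0.023 with 1 library left out, turning sign without 24M_2 (0.023), and the other 8 genes kept their direction in every alternative run. The globin changes ran from -2.75 to -1.63 and that of Alas2 from -2.22 to -0.80, and Alas2 passed in none. At least 5 FPKM in 2 libraries left out Alas2.

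With 2 libraries per age and 2 residual degrees of freedom, a missed threshold does not show that a gene stayed level.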

Other observations

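Some genes of blood and heme handling enter no comparison. Haptoglobin (Hp), the plasma scavenger of free hemoglobin, is listed in both tables but was too low to be tested, with 0.952 and 1.38 FPKM (2M), 0.0613 and 0.317 (24M_1, 24M_2) and 11.5 and 2.04 (24M_3, 24M_4). The genes that follow are listed only in the separate table. Hemopexin (Hpx), the plasma carrier of free heme, was at 0.501 and 0.157 FPKM in 24M_3 and 24M_4. The erythroid factor Tal1 was at 0.446 and 0.377, and the platelet chemokine Ppbp at 0.978 and 1.57. Lymphocyte genes differed more between these 2 libraries: Cd3d was at 2.96 and 0.408 FPKM and Cd79a at 5.19 and 1.50, while the members of the globin pairs differed between them by 1.07-fold to 1.36-fold.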
